A study of Sus scrofa with 36 samples.

Results

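The unfolded protein response sensors and factors are the genes XBP1, ATF4, ATF6, ERN1, EIF2AK3, DDIT3, PPP1R15A, HERPUD1, SEL1L and TRIB3. Their probes were chosen by gene name, in upper case, or by the symbol in round brackets in the probe description, and the rule uses no measured value. Of the 10 genes, 9 had probes, against 12751 named genes with a tested probe in all, and TRIB3, which had none by this rule, was not analysed here. The 9 genes had 29 probes, and all 29 were bright enough to be tested: 9 probes for XBP1, 7 for ATF4, 3 each for ATF6 and DDIT3, 2 each for EIF2AK3 and HERPUD1, and 1 each for ERN1, PPP1R15A and SEL1L. The results below are given on the main probe of a gene, which is its tested probe with the highest mean over all arrays, and the other probes are named by number in order of falling mean intensity.

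RNA came from the thyroid glands of 36 castrated male growing pigs, with 1 pig on each 1-colour array. The pigs were Creole (CR), Large White (LW) or F1, the cross of Large White and Creole, at a labelled temperature of 24 or 30 °C, which makes 6 groups of 6 pigs. The protocol gives the hot condition as 32 °C for 5 days, and the pigs labelled 24 °C were slaughtered before the exposure and those labelled 30 °C after it, so temperature and time of slaughter cannot be told apart. Each breed stood for a few litters only, which the labels do not identify, so littermates were treated as independent pigs and breed and family cannot be told apart. No age is given in the labels. No genetic modification or drug is named for any group.

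When unfolded proteins build up in the endoplasmic reticulum (ER), sensors in its membrane signal to the nucleus and to the ribosomes. IRE1, encoded by ERN1, splices the mRNA of XBP1 into the form that makes an active transcription factor. PERK, encoded by EIF2AK3, slows translation while favouring that of the factor ATF4, and ATF6 is itself cut to release a factor that raises ER chaperones. Thyroid follicular cells make thyroglobulin, a large secreted protein that folds in this compartment.

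The tissue carried its defining markers. Thyroglobulin (TG) had a mean log2 intensity of 18.80 and PAX8, a follicular transcription factor, of 11.41, and both were well above background on all 36 arrays. Of the 11 follicular markers, 6 had a tested probe. CASR, the only tested marker of parathyroid cells, lay at 5.88 and was also well above background on all 36 arrays. The negative controls of an array had a median of 25 to 28 intensity units, and the share of probes well above background ran from 72.8% to 80.3%. Median intensities were 136.5 to 168.5 units on the CR arrays and 132.5 to 172 units on the LW arrays.

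The probes are 60 bases long, and 30 bases of ATF6, HERPUD1 and DDIT3 probes are given 5′ to 3′ as the array files hold them. The genome build and position of the probes are not given in the files, and the strand of a probe was not checked against a pig transcript. ATF6 probe 1 was designed on a cluster of expressed sequence tags and ATF6 probes 2 and 3 on a predicted transcript, and the 3 probes are shown because they disagree on the breeds. HERPUD1 probe 2 lay near background, and probe 1 did not. DDIT3 probe 1 is shown from base 31 to base 60, with the capitals marking 20 bases that a probe named MARS, for methionyl-tRNA synthetase, holds on the opposite strand. DDIT3 probes 2 and 3 are the same 60 bases.
ATF6 probe 1: caccccccaagggttgtggttgatttttac
ATF6 probe 2: catcattattcagacactaccaacacttat
ATF6 probe 3: aacagagaaccacctcatgatacaattcaa
HERPUD1 probe 1: ttgactacagctcaatttccttacctggat
HERPUD1 probe 2: ttgaaggactcttcacactgcacaccagat
DDIT3 probe 1: ttgtatgtttATTTATTACTGCCCAAATCC
DDIT3 probe 2: atgaaaatgggggtaactatgtctcacccc

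Other probes also overlapped in sequence. XBP1 probes 1 and 2 share 41 bases, and XBP1 probe 6 shares 57 bases with a probe named XBP1P1. ATF4 probe 1 shares 56 bases with a probe that carries no name. Further pairs of XBP1 probes share 48 and 36 bases, and a pair of ATF4 probes shares 50. The signals of such probes are not independent of each other. No probe is labelled for the spliced or the unspliced form of XBP1, so the 2 forms were not measured apart.

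The first comparison asked whether the sensors and factors were at other levels in the pigs labelled 30 °C than in those labelled 24 °C. None of the 9 genes was called (limma with Benjamini-Hochberg adjustment, adjusted p under 0.05) on any of its 29 probes. Over all 46222 tested probes 1.18% were called and 0.876% were called lower in the 30 °C pigs, and over the main probes of all named genes 1.19% and 1.04%. The median log2 difference of the 9 main probes, 30 °C minus 24 °C, was -0.03, from -0.16 for HERPUD1 to 0.05 for ATF6, against 0.0090 over all tested probes. At an unadjusted p under 0.05 stood 6 of the 29 probes, 4 of ATF4 and 2 of HERPUD1, all of them lower at 30 °C, against 9.74% of all tested probes in either direction.

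The 3 sensors differed by at most 0.05 on their main probes. ERN1, the IRE1 sensor, had a log2 intensity of 5.84, 6.07 and 6.58 (lowest, median and highest of 18 pigs) at 24 °C and of 5.697, 6.06 and 6.42 at 30 °C. The difference was -0.03 (95% CI -0.15 to 0.09), and the probe was dim, with a mean intensity of 68.1 units. Mean intensities of probes are given as geometric means over the arrays, after normalization. ATF6 had 10.98, 11.33 and 11.97 at 24 °C and 11.14, 11.49 and 11.95 at 30 °C on probe 1, a difference of 0.05 (95% CI -0.09 to 0.19). EIF2AK3, the PERK sensor, had 7.67, 7.93 and 8.44 at 24 °C and 7.49, 7.91 and 8.22 at 30 °C, a difference of -0.04 (95% CI -0.15 to 0.08). In each of the 3 sensors the ranges of the temperatures overlapped.

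XBP1, the factor downstream of IRE1, had a mean intensity of 72318 units on probe 1. Its log2 intensity was 15.88, 16.14 and 16.36 at 24 °C and 15.77, 16.17 and 16.41 at 30 °C. The difference was -0.0027 on the log2 scale (95% CI -0.12 to 0.11), and over its 9 probes it ran from -0.042 to -0.0027. None of the 9 probes had an unadjusted p under 0.05 for temperature.

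ATF4, the factor that PERK signalling favours, was lower at 30 °C on each of 7 probes, by -0.14 to -0.08, and none of the 7 was called (adjusted p 0.330 to 0.648). On probe 1 the 24 °C pigs had 14.87, 15.21 and 15.65 and the 30 °C pigs 14.99, 15.12 and 15.45, and 15 of the 18 hot pigs lay below the 24 °C mean of their breed. The 7 probes read the same RNA and are not 7 observations. The lowest and the highest pig for ATF4 were both at 24 °C. ATF4 is known to be set largely by translation, which an array does not read.

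DDIT3 (CHOP), a transcription factor of the late response that promotes cell death, had 10.74, 11.28 and 11.64 at 24 °C and 10.88, 11.24 and 11.58 at 30 °C, a difference of -0.05 (95% CI -0.17 to 0.07). PPP1R15A (GADD34), the phosphatase subunit that restores translation, lay near background at a mean intensity of 58.2 units and differed by 0.05 (95% CI -0.07 to 0.17). Neither gene passed the test.

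HERPUD1, a membrane protein of the ER-associated degradation machinery, had the smallest p of the 9 genes for temperature. Its log2 intensity was 14.53, 14.98 and 15.50 at 24 °C and 14.41, 14.84 and 15.41 at 30 °C. The difference was -0.16 (SE 0.06, 95% CI -0.28 to -0.04), limma's adjusted p was 0.286, and 14 of the 18 hot pigs lay below the 24 °C mean of their breed. Within each of the 4 slides that hold all groups the 30 °C pigs were lower on average, by -0.26 to -0.13. The same sign on all 4 slides was also seen for EIF2AK3 (-0.07 to -0.02) and, upwards, for PPP1R15A (0.01 to 0.11). HERPUD1 probe 2 had a mean intensity of 56.3 units and differed by -0.14 (limma's adjusted p 0.332). The negative controls had medians of 25 to 28 units before normalization. SEL1L, the scaffold of the HRD1 ligase that HERPUD1 works with, differed by 0.0067 (95% CI -0.13 to 0.15).

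**Figure D1:**
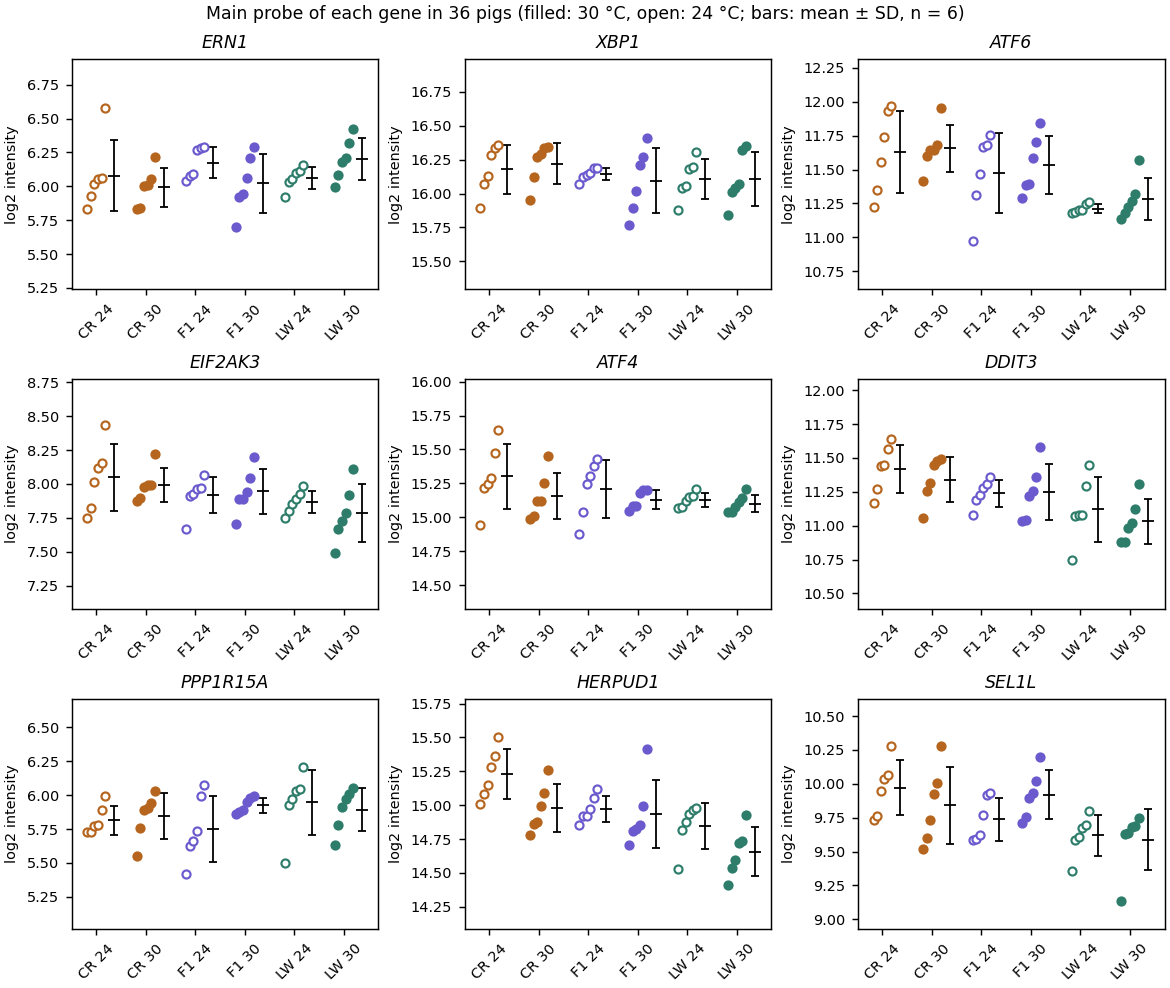
The log2 intensity of the main probe of each of the 9 genes is plotted for each pig by breed and temperature (open circles 24 °C, filled circles 30 °C), with the mean ± SD of the 6 pigs beside each group. The temperatures overlap in each breed, while LW pigs lie low against CR pigs for ATF6, DDIT3, HERPUD1 and SEL1L.

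Within the breeds limma called 0 of the 29 probes in CR, in F1 and in LW, where 0.387%, 0.383% and 0% of all tested probes were called. At an unadjusted p under 0.05 stood 2 probes in CR, both of HERPUD1, 3 in F1, of ATF4 and XBP1, and 0 in LW. These counts were not set against the share of all tested probes at that p, and probes of the same gene are not separate observations. HERPUD1 on probe 1 differed by -0.25 in CR (95% CI -0.47 to -0.04), by -0.04 in F1 (95% CI -0.25 to 0.17) and by -0.19 in LW (95% CI -0.41 to 0.02). SEL1L differed by -0.13 in CR, 0.18 in F1 and -0.03 in LW, and ERN1 by -0.09, -0.15 and 0.14. The F test of the interaction of breed and temperature called 0 of the 29 probes and 0% of all tested probes, with 1 of the 29, XBP1 probe 7, at an unadjusted p under 0.05, so none of these differences between breeds in the heat change passed the test.

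**Figure D2:**
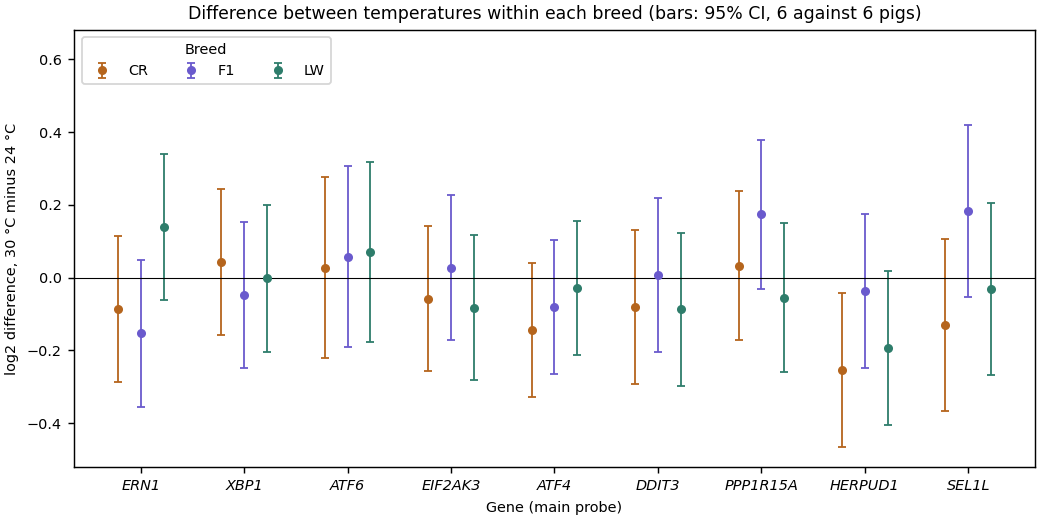
The log2 difference between 30 °C and 24 °C (y axis) is plotted within each breed for the main probe of each of the 9 genes, with 95% confidence intervals from the model of the 6 group means. The interval leaves out 0 only for HERPUD1 in CR (-0.47 to -0.04, unadjusted).

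The second comparison asked how the breeds differed. ATF6, DDIT3, HERPUD1 and SEL1L were lower in LW than in CR and were called on their main probes, which is 4 of the 9 genes. Over all tested probes 12.9% were called for this contrast and 5.73% were called lower in LW, and over the main probes of named genes 13.3% and 5.87%. The median log2 difference of the 9 main probes, LW minus CR, was -0.20, against -0.00039 over all tested probes, and 7 of the 9 were below 0. These are RNA levels of whole glands, in which fewer cells of a type and less RNA per cell cannot be told apart.

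HERPUD1 had 14.78, 15.09 and 15.50 (lowest, median and highest of 12 pigs) in CR, 14.71, 14.92 and 15.41 in F1 and 14.41, 14.78 and 14.98 in LW. The breeds overlapped, with 9 of 12 CR pigs above the highest LW pig and 12 of 12 LW pigs below the CR mean of their temperature. LW was 1.28-fold lower, a log2 difference of -0.35 (SE 0.07, limma's adjusted p 0.00126). The difference was -0.38 at 24 °C and -0.32 at 30 °C. The dim probe 2 gave -0.06 (limma's adjusted p 0.642), so the call for HERPUD1 rests on probe 1. The deviations of probe 2 from the group means nevertheless went with those of probe 1 over the 36 pigs (r = 0.68, rho = 0.71, permutation p adjusted over 65 pairs of probes 6.63e-05 and 3.51e-05, and r = 0.64 without the 2 pigs farthest from the median).

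DDIT3 had 11.05, 11.44 and 11.64 in CR, 11.04, 11.24 and 11.58 in F1 and 10.74, 11.08 and 11.45 in LW. LW pigs lay low, and 11 of 12 were below the CR mean of their temperature. LW was 1.24-fold lower on probe 1, a log2 difference of -0.30 (SE 0.07, limma's adjusted p 0.00368). Probes 2 and 3, which are the same 60 bases, gave -0.26 (adjusted p 0.0352) and -0.22 (adjusted p 0.0867), so 1 sequence was called on 1 of its 2 spots. Probe 1 holds the 20 bases shared with the MARS probe on the other strand, and the MARS probe differed by 0.003 between LW and CR (adjusted p 0.985).

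SEL1L had 9.52, 9.93 and 10.28 in CR, 9.59, 9.83 and 10.20 in F1 and 9.14, 9.66 and 9.80 in LW. All 12 LW pigs were below the CR mean of their temperature, and 7 of 12 CR pigs lay above the highest LW pig. LW was 1.23-fold lower, a log2 difference of -0.30 (SE 0.08, limma's adjusted p 0.0135), on the only probe of this gene. Within the 4 slides that hold all groups the difference ran from -0.51 to -0.05.

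ATF6 had 11.23, 11.64 and 11.97 in CR, 10.98, 11.53 and 11.84 in F1 and 11.14, 11.21 and 11.57 in LW on probe 1. All but 1 of the LW pigs lay between 11.14 and 11.32, where 1 of the CR pigs was found. LW was 1.32-fold lower, a log2 difference of -0.40 (SE 0.08, limma's adjusted p 0.00135). Probe 2 gave 0.14 (adjusted p 0.249) and the dim probe 3 gave 0.0031 (adjusted p 0.985), and with the 3 probes averaged the difference was -0.08 (adjusted p 0.342). The 3 probes did not vary together over the pigs of a group, with r between 0.03 and 0.38 and none of the 3 pairs passing the test, so the call for ATF6 rests on probe 1.

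EIF2AK3 was just outside the threshold on probe 1, with a log2 difference of -0.20 (SE 0.07, limma's adjusted p 0.0526) and 11 of 12 LW pigs below the CR mean of their temperature, while probe 2 gave 0.05 (adjusted p 0.671). Leaving out any of 9 pigs brought probe 1 under the threshold. XBP1 differed by -0.09 (95% CI -0.23 to 0.05) and by -0.09 to 0.06 over its 9 probes, with adjusted p between 0.384 and 0.909. ATF4 differed by -0.11 (95% CI -0.24 to 0.01), and its 12 LW pigs all lay between 15.04 and 15.21, inside the CR range of 14.94 to 15.65. For ATF4, which was not called, 11 of 12 LW pigs were also below the CR mean of their temperature. ERN1 differed by 0.10 (95% CI -0.05 to 0.24) and PPP1R15A by 0.09 (95% CI -0.06 to 0.24), both on dim probes.

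The mean of the cross lay between those of the parental breeds for each of the 9 genes, called or not. No probe of the 9 genes was called for F1 against CR, for F1 against LW or for F1 against the mean of LW and CR, where 3.38%, 1.99% and 0.439% of all tested probes were called. On the main probes 0, 4 and 0 genes stood at an unadjusted p under 0.05, and the 4 were ATF6, DDIT3, HERPUD1 and SEL1L, higher in F1 than in LW by 0.17 to 0.26. These counts were not set against the share of all tested probes at that p. The 4 genes are those called lower in LW than in CR, and the same LW pigs enter both contrasts. Their difference between F1 and LW is thus not independent of that call. Against the mean of both breeds the 9 main probes differed by -0.04 to 0.07.

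**Figure D3:**
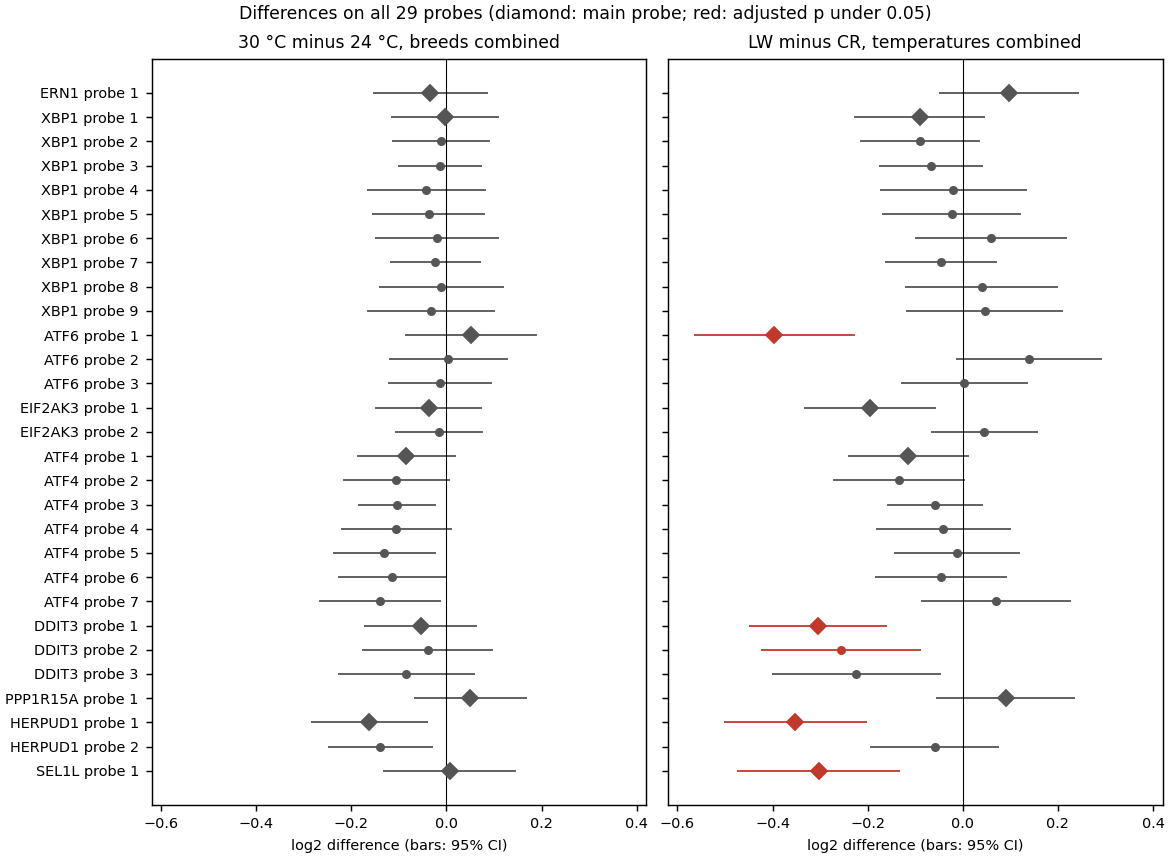
The log2 differences on all 29 probes are plotted for temperature (left) and for LW minus CR (right) with 95% confidence intervals, diamonds for main probes and red for an adjusted p under 0.05. No probe is red for temperature, and 5 are red for the breeds, of which DDIT3 has 2, SEL1L has its only probe, and ATF6 and HERPUD1 have 1 each, beside other probes at 0.14 and 0.0031 for ATF6 and -0.06 for HERPUD1.

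Some markers of other cell types were also called for LW against CR, counts to be read against 13.3% of all named genes called. An unadjusted p under 0.05 was reached by 3469 of the 12751 named genes for this contrast. Single calls in a short list lie near these shares. Of 6 adipocyte markers all 6 were below 0 in LW and 3 were called, ADIPOQ by -1.21, PLIN1 by -1.20 and CIDEC by -0.79, with a summed intensity of 14226 to 43245 units in CR and 15381 to 31782 in LW. Of 6 tested B and plasma cell markers 2 were called lower, JCHAIN by -0.43 and PRDM1 by -0.19, while 3 of the 6 were above 0 and the list median was -0.02, with sums of 11153 to 13702 and 11604 to 16559 units. Of 5 tested endothelial markers 3 were called higher, PECAM1, CDH5 and KDR, by 0.19 to 0.73, with sums of 22531 to 33529 and 27684 to 38661 units. Of the 7 myeloid markers LYZ was called lower, with 6 of the 7 below 0. Of the 6 tested muscle markers ACTA1 was called higher by 0.22, with 9 of its 17 probes above 0, and the other 5 markers were below 0 and not called. All 5 tested T cell markers were above 0 (median 0.28, 2 at an unadjusted p under 0.05), with 0 called. Of the 4 tested erythroid markers 2 were above 0 and 2 below (median 0.21, 2 at an unadjusted p under 0.05), with 0 called. None of the 6 tested follicular markers was called. The part of these markers in the differences of the 4 genes was not tested.

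The members of the response were also compared among themselves, by whether pigs of a group that were high in one gene were high in another. Deviations from the 6 group means were correlated over the 36 pigs for the 36 pairs of genes, with permutation within groups and adjustment over the pairs. Only DDIT3 and HERPUD1 passed, with r = 0.59 (adjusted permutation p 0.0371) and rho = 0.56 (adjusted permutation p 0.041). The correlation was 0.55 without the 2 pigs farthest from the median of DDIT3 and 0.70 with slide means removed too. Among 12735 named genes HERPUD1 had rank 5 by r with DDIT3, and DDIT3 had rank 51 with HERPUD1. XBP1 and HERPUD1 came next with r = 0.53 (adjusted permutation p 0.0905) and rho = 0.54, and r fell to 0.23 with slide means removed. ATF6 on probe 1 and HERPUD1, both lower in LW, had r = -0.28 (adjusted permutation p 0.245) and rho = -0.30. The median r of the 36 pairs was 0.02.

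**Figure D4:**
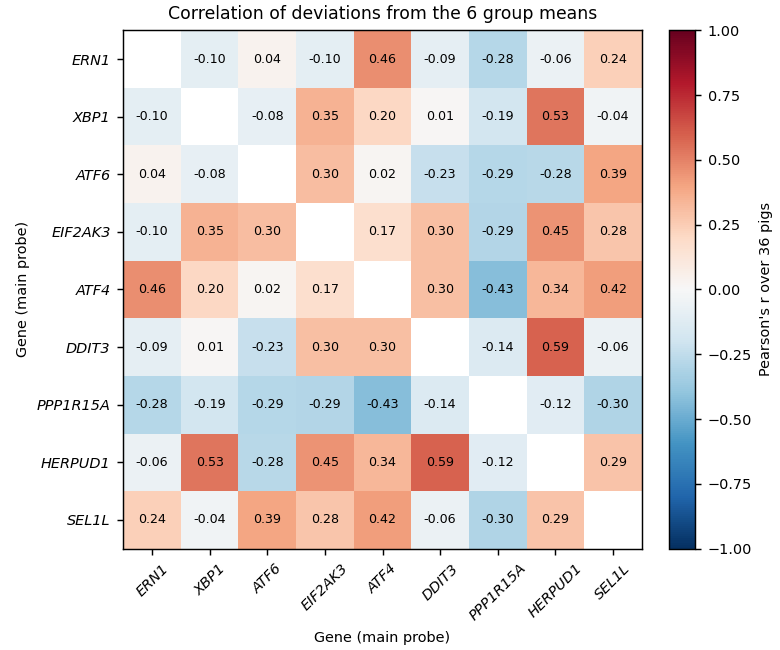
Pearson's r between the deviations of the main probes from the 6 group means over 36 pigs is shown for each pair of the 9 genes, with the colour scale from -1 to 1. HERPUD1 has the highest values, 0.59 with DDIT3 and 0.53 with XBP1.

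Most probes of the same gene varied together, though some of the pairs counted here overlap in sequence, as given above, and are not independent. Of 65 pairs of probes of a gene, a set examined after the values were seen, 58 passed a permutation test of r adjusted over the 65 pairs and 54 passed that of rho as well. All 21 pairs of ATF4 passed (r from 0.69 to 0.96), 32 of 36 pairs of XBP1 (0.16 to 0.94), all 3 of DDIT3 (0.57 to 0.94), and the pair of HERPUD1. The pair of EIF2AK3 passed by r (0.41, adjusted permutation p 0.039) and not by rho (0.35, adjusted permutation p 0.0676), with r = 0.33 without the 2 pigs farthest from the median, and 3 of the 32 pairs of XBP1 passed by r alone. The 7 that did not pass by r were 4 pairs of XBP1 and the 3 of ATF6. The 2 spots of the same DDIT3 sequence differed by -0.21 ± 0.08 (SD, n = 36 arrays) on the log2 scale, probe 3 minus probe 2.

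The named genes whose deviations were most like those of each gene, by r over the 36 pigs and among 12735 genes, were in the files' spelling UBE2D3 (0.87) and YIF1A (0.81) for XBP1, COQ3 (0.71) and GOLGA4 (0.70) for ATF4, FAM63B (0.73) and BDP1 (0.68) for ATF6, and BMPR2 (0.83) and GM2058 (0.82) for SEL1L. For HERPUD1 they were MAT2A (0.73) and LOC100511788 (0.71), for DDIT3 METTL14 (0.65) and USP20 (0.63), and for EIF2AK3 MAP7 (0.61) and RPL37 (0.60). For the dim probes of ERN1 and PPP1R15A they were KIAA1267 (0.68) with RPAIN (0.66), and NOSIP (0.74) with FAM174A (0.73). These values are the highest of many and are given as a description.

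The other genes of the response were taken from 6 lists that together name 126 genes, of which 102 had a tested probe. For temperature 2 of the 102 were called, both lower at 30 °C, where 1.19% of all named genes were called and 1.04% called lower, so the count lies near that of all genes. The median log2 difference of the 102 was -0.0047. Among other sensors and regulators, 1 of 14 tested genes was called. It was ERN2, a relative of IRE1 known from mucous epithelia, with 9.24, 10.08 and 10.94 at 24 °C and 9.03, 9.40 and 10.07 at 30 °C. All 18 hot pigs lay below the 24 °C mean of their breed, and the difference was -0.68 (SE 0.11, limma's adjusted p 0.000191) on its only probe. It was -0.88 in CR (adjusted p 0.0209), -0.66 in F1 (0.149) and -0.49 in LW (1), with no difference between breeds passing the interaction test (adjusted p 0.9999).

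Among the ER chaperones 1 of 21 tested genes was called for temperature, HSPA5 (BiP), the main HSP70 of the ER, which holds the sensors inactive until unfolded proteins draw it away. An unadjusted p under 0.05 was reached by 6 of the 21 chaperones and by 1214 of the 12751 named genes. Below 0 were 13 of the 21 chaperones and 5723 of the 12751 named genes. HSPA5 had 15.39, 15.75 and 16.33 at 24 °C and 14.96, 15.55 and 15.76 at 30 °C. All 18 hot pigs lay below the 24 °C mean of their breed, the difference was -0.30 (SE 0.07, limma's adjusted p 0.0234), a 1.23-fold lower level, and all 3 of its probes were called. It was no longer called with position on the slide as a block (adjusted p 0.06) or without the breed term (0.0576). The erythroid marker HBB, 1 of 4 tested erythroid markers, was also lower in the 30 °C pigs, 2.01-fold (adjusted p 0.00142), with summed erythroid intensities of 4505 to 7382 units at 24 °C and 3693 to 6624 at 30 °C, with 3 of the 4 below 0. Other marker lists also had most genes below 0 for temperature, with 0 called by limma. The 6 adipocyte markers were all below 0 (median -0.32, 3 at an unadjusted p under 0.05), the 7 myeloid markers were all below 0 (median -0.11, 1 at an unadjusted p under 0.05), the 6 tested muscle markers were all below 0 (median -0.07, 0 at an unadjusted p under 0.05), and 5 of the 6 fibroblast markers were (median -0.28, 2 at an unadjusted p under 0.05). Their summed intensities overlapped between the temperatures, with 16533 to 45344 units at 24 °C and 14226 to 36960 at 30 °C for adipocytes, 5227 to 8358 and 4322 to 8672 for myeloid cells, and 49986 to 158920 and 47839 to 180962 for fibroblasts. The part of these markers in the differences of HSPA5 and ERN2 was not tested.

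The remaining lists had 0 genes called for temperature by limma. Their counts at an unadjusted p under 0.05 are to be read against 1214 of the 12751 named genes at that p. Of 19 tested genes of ER-associated degradation 3 stood at an unadjusted p under 0.05, and UFD1, a partner of the segregase VCP, had the smallest p, with -0.12 (adjusted p 0.144). Of 22 genes of the translocon and early secretion 0 did, and SSR4 had -0.09 (adjusted p 0.64). Of 22 known ATF4 targets 3 did, and PSAT1, an enzyme of serine synthesis, had -0.15 (adjusted p 0.422). Of 7 genes of ER-linked apoptosis 1 did, BCL2L11 (BIM), with 0.13 (adjusted p 0.275).

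For LW against CR the ER chaperones were the list with most calls, a comparison made after the values were seen. Of 21 tested chaperone genes 14 were called, all lower in LW, with a list median of -0.27, against 13.3% of all named genes called and 5.87% called lower. The lowest were SDF2L1 (-0.68, adjusted p 0.0054) and HSP90B1 (GRP94, -0.43, adjusted p 0.0034), the latter called on each of 10 probes. Calreticulin (CALR, -0.34) and DNAJC3 (-0.35) were called on each of 3 probes, and HSPA5 differed by -0.27. In the other lists 3 of 14 sensors and regulators were called (CREB3 and NFE2L2 higher, ATF5 lower), 1 of 19 degradation genes, 2 of 22 secretion genes, 3 of 22 ATF4 targets and 2 of 7 apoptosis genes, small counts to be read against the same 13.3%. ERO1A, an oxidase of the ER, stands in both the chaperone and the apoptosis list, and ATF5 in both the regulators and the ATF4 targets.

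**Figure D5:**
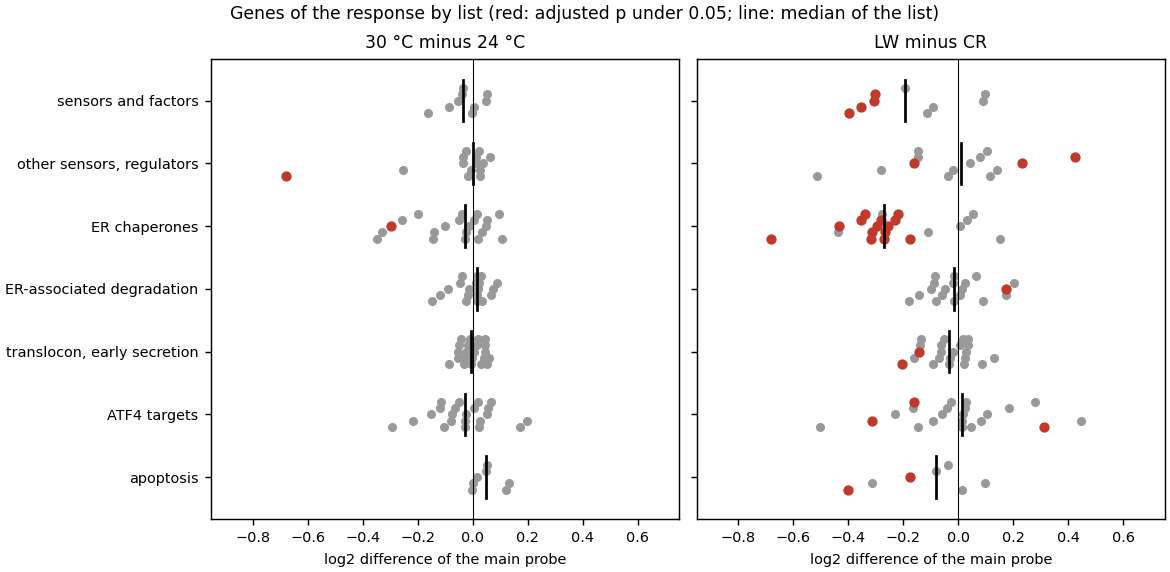
The log2 difference of the main probe of each gene is plotted by list for temperature (left) and LW minus CR (right), with red points for an adjusted p under 0.05 and a line at the median of the list. For temperature 2 points are red, ERN2 and HSPA5, and for the breeds 14 of 21 ER chaperones are red and below 0.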

How the data were processed

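Total RNA of 36 thyroid glands was hybridized to 1-colour Agilent arrays, and per the file headers the scanner files hold the median pixel intensity of each spot, read with Feature Extraction 10.10.1.1 by the submitters' processing notes. The authors quantile-normalized this intensity and deposited log2 values, of which 46097 probes were matched. The values used here were remade in that way from the scanner files, with 106 non-uniform spots set to missing, and differed from the deposited log2 values by a median of 0.0056. The filter kept the 46222 of 60305 probes that 5 or more of the 6 arrays of any group marked as well above background.

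Tests used limma 3.58.1 in R 4.3.3 over all 36 arrays with p-values adjusted by Benjamini-Hochberg over all tested probes at a threshold of 0.05. The p-values measure the spread between pigs, with littermates taken as independent. Temperature and breed came from an additive model, and changes within breeds and the interaction from the 6 group means. The fit was checked on simulated data. Correlations used 100000 resamples within groups. Members and gene lists were chosen with earlier results of these data known. The genes named are the members, the response genes called for temperature or else the smallest p of a list, and the 2 genes most like each member; the breed calls in the lists were chosen after their values were seen. Precision is set by the number of arrays and, for dim probes, by how far the signal stands over background, since arrays have no read depth. Alternatives covered scaling, background, filters, slide, position on the slide, each pig left out and the choice of probe. Promoter motifs were not analysed here, and 1 probe sequence is not reported here.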

Additional observations from a re-analysis of the deposited data

Results flagged for a closer look

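In 4 of 54 groups of 6 pigs (9 genes in 6 groups) 1 pig stood apart from the other 5 by Dixon's criterion, and chance alone gives about 1 in 20 such groups. ERN1 was 6.58 in CR_24 replicate 4, against a mean of 5.98 in the other 5 pigs. EIF2AK3 was 8.22 in CR_30 replicate 5, against 7.95. HERPUD1 was 14.53 in LW_24 replicate 3, against 14.91. SEL1L was 9.14 in LW_30 replicate 6, against 9.68. HERPUD1 and SEL1L were still called lower in LW than in CR without any single pig, with log2 differences of -0.38 to -0.32 and of -0.34 to -0.26.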

How the results depend on the processing

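No paired analysis was possible because the labels carry no replicate numbers and do not identify litters. For temperature 0 of the 9 genes were called under any alternative. For LW against CR the same 4 were called without each of the 36 pigs and under every alternative except the mean of the probes of a gene, where ATF6 was not called and 3 were. EIF2AK3 was called as well with slide as a random block (-0.19, adjusted p 0.0447), with position on the slide as a block (-0.20, 0.044) and without any one of CR_24 replicates 3 and 5, CR_30 replicates 4 and 6, F1_24 replicate 5, F1_30 replicate 6, LW_24 replicate 2 and LW_30 replicates 1 and 4 (-0.22 to -0.20, adjusted p up to 0.0493). For F1 against LW the count of members was 1, HERPUD1, with slide as a fixed block, and 0 to 1 with each pig left out, the 1 being ATF6 without F1_24 replicate 6 (0.31, adjusted p 0.0326). The ER chaperones called for temperature, 1 in the reported fit, were 2 (HSPA5 and MANF) with the median or the processed signal at the 75th percentile, with normexp and with slide as a fixed or random block. They were 3 with the mean of the probes of a gene (HSPA5, DNAJB11 and MANF) and 0 with position as a block or without the breed term. They were 1 to 2 with each pig left out, and MANF was added without any one of CR_24 replicates 3 and 4, CR_30 replicates 1, 5 and 6, F1_30 replicate 6, LW_24 replicates 2 and 3 and LW_30 replicates 1 and 4. The cause was not tested. The chaperones called lower in LW, whose alternatives were chosen after seeing the data, were 11 to 15, and 10 to 16 with each pig left out. The correlated pairs of genes were 1 with slide means removed and 2 at the 75th percentile, XBP1 with HERPUD1 being added.

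Limits: the probes of ERN1 and PPP1R15A, ATF6 probe 3 and HERPUD1 probe 2 lay near background, where log2 differences can be compressed. For temperature HERPUD1 probe 2 gave -0.14, against -0.16 on probe 1. With 6 pigs in a group the SE of a log2 change within a breed was 0.09 to 0.12 on the main probes. Pen, day of slaughter and parents were not in the models.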
